A study of Mus musculus with 2 samples.

Results

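Axon guidance genes encode the secreted and membrane-bound cues that steer growing axons and migrating cells, and the receptors that read them. Ephrins on one cell engage Eph receptor kinases on the next, semaphorins act through plexins and neuropilins, Slits through Robo receptors, and netrins through Unc5 receptors and their partners. The same molecules are known in brain tumours for roles in invasion and in the upkeep of stem-like cells. Here the genes were taken by symbol from the table of the authors, as all symbols that begin with the letters of the Eph receptor, ephrin, Slit, Robo, netrin, Unc5, neuropilin, semaphorin or plexin families. The rule found 80 of the 26891 named genes, covered by 184 probes. Of these, 70 belong to the families named. The other 10 match by letters alone and were kept in the counts: 6 Slitrk genes (neuronal transmembrane proteins with a Slit-like part), the trafficking gene Unc50, the signalling gene Unc5cl, and the opposite-strand transcripts Plxna4os1 and Plxna4os2.

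The cells were a mouse glioblastoma stem cell line grown as neurospheres in serum-free medium with EGF and basic FGF, derived from de novo mouse tumours that had been induced with an SB transposon. They were stably transduced with lentivirus carrying a non-target hairpin (control) or a hairpin against Stat5b (Stat5b-knockdown), a transcription factor switched on by cytokine and growth factor receptors. The study asked how suppressing Stat5b changes gene expression. Each group was 1 line of cells on 1 single-colour array, both on 1 slide, so every difference describes 2 arrays and has no replicate check, and no test could be run.

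Cells with the Stat5b hairpin had 25.0% of the control signal at the Stat5b probe above background on both arrays (498 against 1991). All 16354 genes measured on both arrays had a median log2 difference, knockdown minus control, of 0.01. Of the stem cell markers looked up, Nes (signals 18174 and 15868), Cd44 and Vim were well above background, while Sox2 and Fabp7 were not above it on either array. The 7 of 10 measured on both ranged from -0.70 (Pax6) to 0.40 (Sox9), and Olig2 passed background in knockdown cells alone (6.28 and 53.2). The neuron markers Rbfox3, Syt1 and Dcx were also not above background, and the 6 measured of 10 neuron markers lay between -0.22 and 0.45. Of the astrocyte markers, 5 of 8 were measured, with a median difference of 0.94 and a range of -0.08 to 1.19; the median is the value of Aqp4, whose highest signals on the arrays were 80.2 and 79.0. Their summed level was 1.68 (control) and 3.57 (knockdown), in units of the 75th percentile signal, with Slc1a3 at background. That sum rests mostly on Aldoc, whose highest signals were 1832 and 3929 (1.19). No other measured astrocyte marker read above 80.2 on either array. Gja1 was at 0.98, Slc1a2 at 0.04 and Aldh1l1 at -0.08. S100b passed background in knockdown cells alone (9.22 and 122) and Gfap in control cells alone (23.2 and 15.1). The immune markers Ptprc (3288 and 4831) and Itgam (4250 and 4632) were well above background, while Aif1, Cx3cr1, C1qa and P2ry12 were at background, and the 5 of 9 measured ranged from -0.18 to 1.80 (Tmem119). The summed level of the immune list was 8.47 and 11.97. Oligodendrocyte-lineage markers ranged from -0.38 to 0.89 (Pdgfra) over 7 of 8, with summed levels of 2.87 and 3.61. Endothelial and mural markers ranged from -0.75 (Cdh5) to 2.19 (Pdgfrb, a dim gene with highest signals of 16.6 and 76.1) over 6 of 9. Kdr, Tek and Cldn5 were at background. The summed levels of this list were 12.67 and 11.80, and rest mostly on Acta2, whose highest signals were 24654 and 24925 (-0.12). No other measured marker of this list read above 149.9 on either array. The part of these cell types in the values below was not tested. In a culture measured in bulk, fewer cells of a type and less RNA per cell cannot be told apart.

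The findings below rest on array probes, 1 or more for each gene, which are designed oligos of 60 bases whose sequences the authors deposited. The first 30 bases of selected probes, for genes that differed most or whose probes disagreed, are printed so that the target can be identified. They run 5′ to 3′ in lower case, and none of their bases is marked. Not every probe of these genes, nor every gene whose probes differed, is shown. Variant numbers are those of the probe descriptions.
Efna5, variant 1, array row 61: gtcctttgcacctcctcatcgagtgccgtt
Efna5, variant 1, array row 104: tgtgattctagcatttgtctctaaccaatg
Ntn5, variant 2, array row 13: tgcttggacctgtgagccttataggttatt
Ntn5, variant 1, array row 10: tgcacatgagccttcagagatactgtcagc
Plxna4, array row 202: ctcaccttgaataccaaccttttgaaagaa
Nrp1, array row 137: ttgatggacatgtgacctgtagcccagtgc
Nrp2, variant 5, array row 380: tacacagtacactcccatgtgaagaggtgt
Nrp2, variant 6, array row 379: tgacagaacatttccagatgacaagaactt
Nrp2, variant 1, array row 367: tgagccagatcacgggaactcgagagcttt
Ephb6, variant 1, array row 266: cacccccaaatcctgctcttccaacagcct
Ephb6, variant 1, array row 369: ttagtggcagctgtgggcacctgtgtagct

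Most of these genes gave a signal in the cells, and most of those differed by less than 2-fold between the arrays. A gene was counted as measured when at least 1 of its probes was well above background on both arrays, which held for 54 of the 80 (67.5%), against 60.8% of all named genes. A further 3 of the 80 were above background on 1 array (4.21% of all named genes), and 23 on neither. Of the 54, 3 exceeded their control signal by 2-fold or more (5.56%), against 3.66% of all measured genes. None was at least 2-fold lower, against 2.41% of all measured genes. These 3 were the ephrin Efna5, the netrin Ntn5 and the plexin Plxna4. At a smaller size of 0.5 on the log2 scale (1.41-fold), 9 were higher (16.7%, background 13.8%) and 6 lower (11.1%, background 11.0%). The median difference over the 54 was 0.01, the same to 2 decimals as over all genes, with 27 above 0 (background 51.1%) and 27 below (background 48.9%). The shares of measured members in each count of differences thus lay near those of all genes. Without the 10 letter matches, 53 of 70 genes were measured (75.7%, background 60.8%).

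**Figure D1:**
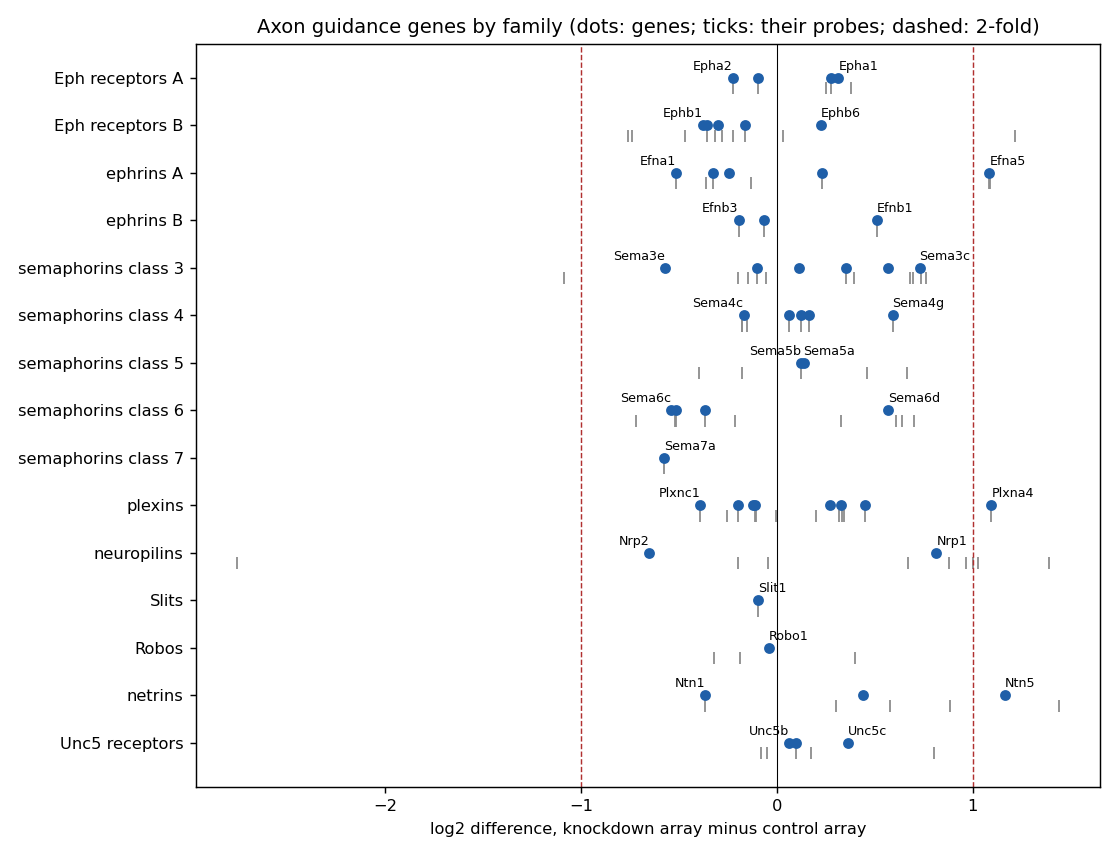
Log2 difference, knockdown array minus control array, of each measured gene of the guidance families (dots), with its single probes as ticks and 2-fold marked by dashed lines. The letter match Unc50 is not drawn. Efna5 (1.09), Plxna4 (1.09) and Ntn5 (1.16) lie past 2-fold, and the Nrp2 dot (-0.65) stands for probes from -2.75 to 1.0.

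**Figure D2:**
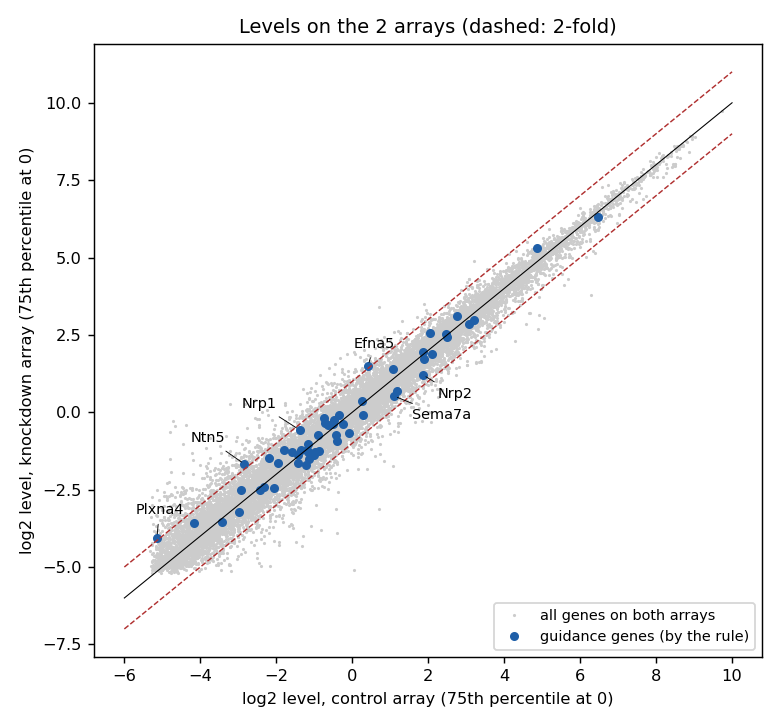
Normalised log2 level of every measured gene on the control array (horizontal axis) and the knockdown array (vertical axis), guidance genes in blue and 2-fold marked by dashed lines. The guidance genes spread over control levels from -5.14 (Plxna4) to 6.46 (Ephb3), and the 3 past 2-fold lie above the upper dashed line.

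Differences are on the scale of log2 processed signal after each array was set to its 75th percentile. The ± after a value is the error that the scanner software assigns, about 0.20 for 1 probe, and not a spread between cultures. The SD was 0.06 among repeated spots of the same probe and 0.31, pooled, among different probes of 1 gene, so agreement among probes is given where a gene has several.

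Ephrin ligands were all measured, 8 of 8, and 1 passed 2-fold. Efna5, a ligand of EphA receptors held in the membrane by a lipid anchor, was higher on the knockdown array by 1.09 ± 0.14. Its probes for variant 1 read 802 and 1701 in row 61, and 542 and 1151 in row 104, for control and knockdown (1.08 and 1.09). The remaining probe, for variant 2, lay in row 356 and passed background in knockdown cells but not in control cells (12.8 and 37.9), with a bound of at least 2.95-fold. Each of the 3 Efna5 probes was thus higher in knockdown cells.

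The other A ephrins were lower or near their control signal. Efna1, known as a ligand of Epha2, read 1126 and 788 (-0.52 ± 0.20). Efna2 was at -0.32, Efna3 at -0.25 over 2 probes, and Efna4 at 0.23. Among the B ephrins, which span the membrane and can signal back into their own cell, Efnb1 read 2052 and 2928 (0.51 ± 0.20). Efnb2 was at -0.06 and Efnb3 at -0.19. Efna5 was the only ephrin past 2-fold, and Efnb1 the next highest.

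Of 14 Eph receptors, 9 were measured, and their gene values lay between -0.38 and 0.31. Without the last 64 rows, Ephb2 and Ephb6 were past 0.5 in size, each through 1 probe. The B receptors, which bind B ephrins, were all above background, and 4 of 5 lay below 0: Ephb1 at -0.38, Ephb2 at -0.36, Ephb4 at -0.30 and Ephb3 at -0.16. Ephb4 had 3 probes, each between -0.36 and -0.22. The 2 Ephb2 probes were at -0.74 and 0.03, and the second lay in the array's last 64 rows, where 1.01% of measured probes differed 4-fold or more against 0.366% elsewhere. Ephb3 and Ephb4 were lower by less than the SD between probes of a gene (0.31), and Ephb1 and Ephb2 by slightly more.

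Ephb6, a receptor with an inactive kinase, had probes that went opposite ways. The probe in row 266 read 2247 and 1326 (-0.76). The probe in row 369 read 45.5 and 106 (1.22). Their mean, 0.23, therefore describes neither probe, and without the last 64 rows Ephb6 was at -0.76. With that value all 5 B receptors lay below 0, against 4 of 5 with all rows. Of all measured genes, 48.9% lay below 0 with all rows.

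Of the 9 A receptors, Epha2, described in glioblastoma as a marker of stem-like cells, read 4144 and 3548 (-0.23 ± 0.20). Epha1 was at 0.31 over 2 probes and Epha4, which binds ephrins of both classes, at 0.28. Epha3 was at -0.10 from 1 of its 4 probes, the other 3 being at background. The measured probe lies in row 342, within the last 64 rows, so Epha3 has no value outside them. Epha5, Epha6, Epha7, Epha8 and Epha10 were not above background with any probe. The measured A receptors thus split evenly around 0, 2 above and 2 below.

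Semaphorins were measured for 18 of 20 genes, with 11 above 0 and none past 2-fold. In class 3, the secreted semaphorins, Sema3c was higher with both probes, which read 293 and 474, and 39.6 and 67.3 (mean 0.73 ± 0.16). Sema3f, a ligand of Nrp2, was higher with both probes too, at 0.39 and 0.74 (mean 0.57). Sema3b read 3328 and 4261 (0.36). These 3 genes were higher with every probe that was measured.

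Sema3a, the ligand of Nrp1 known for collapsing growth cones, had 3 probes at -0.20, -0.15 and 0.68, so its mean of 0.11 rests on probes that differ. The probes at -0.15 and 0.68 lie in the last 64 rows. Outside those rows Sema3a has only the probe at -0.20, which read 62.6 and 54.5. Sema3e, which binds the plexin Plxnd1 directly, had a mean of -0.57 from probes that disagreed. The probe of its curated transcript read 1208 and 1164 (-0.05), and the other, in row 340, read 178 and 83.7 (-1.09). Without the last 64 rows, which hold the latter, Sema3e was at -0.05. Sema3g was at -0.10 from 1 probe, and Sema3d was at background with each of 3 probes.

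Class 4 semaphorins, which span the membrane and act on B plexins among others, differed by -0.17 to 0.59. Sema4g read 27.5 and 41.5 (0.59 ± 0.26), a dim probe. Sema4c was lower by almost the same amount with each of 3 probes, from -0.18 to -0.15. They read 70036 and 61911, 743 and 657, and 117 and 105. Sema4a, Sema4b and Sema4d lay between 0.06 and 0.17, and Sema4f was at background. The Sema4c probes show how closely probes of 1 gene can agree here.

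The class 5 genes, with thrombospondin repeats outside the cell, were at 0.14 (Sema5a) and 0.12 (Sema5b). Sema5a probes ranged from -0.40 to 0.66, its probe of highest signal read 3710 and 2815, and with that probe alone or among brighter probes the gene lay below 0 (-0.40 and -0.29). The Sema5b value came from 1 probe (220 and 240). A pair of dimmer probes passed background in control cells but not in knockdown cells, and were lower in the latter by at least 1.55-fold and 1.44-fold.

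Class 6 semaphorins, membrane proteins that bind A plexins, differed by gene. Sema6a, Sema6b and Sema6c were lower, at -0.36, -0.51 and -0.54. Sema6b read 214 and 150. Sema6c read 283 and 220 with 1 probe and 499 and 304 with the other. Sema6d was higher, by 0.57 ± 0.11, with 4 probes at 0.33 to 0.70, and 2 of them read 1075 and 1643, and 314 and 511. Every probe of Sema6d that was above background on both arrays was higher, and every such probe of the other 3 genes was lower. The sole class 7 member, Sema7a, which is held by a lipid anchor, read 1057 and 711 (-0.57 ± 0.20).

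Plexins, the receptors of semaphorins, were measured for 8 of 9 genes. Plxna4, a partner of neuropilins in the reading of Sema3a, was higher by 1.09 ± 0.37 from its single probe. That probe read 14.0 and 29.9, at a control level of -5.14, where the lowest level called well above background was -5.35. With normexp, a model-based background correction that shrinks dim signals together, its difference was 0.22. The 2-fold count of Plxna4 therefore rests on a signal close to background.

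The other A plexins were at -0.20 (Plxna1, 2111 and 1841), -0.12 (Plxna2, 3 probes) and 0.27 (Plxna3, 2 probes). Plxnb2, a receptor for class 4 semaphorins, read 14343 and 19616 (0.45 ± 0.20), and Plxnb1 was at -0.11. Plxnd1 was at 0.33, with 2 probes at 0.32 and 0.33. Plxnc1, the receptor of Sema7a, was at -0.39 (119 and 91.1), and another probe, past background in control cells but not in knockdown cells, was lower in the latter by at least 1.81-fold. Plxnc1 and its ligand Sema7a were thus both lower on the knockdown array, each from 1 probe measured on both arrays. Plxnd1 and its ligand Sema3e (-0.57, from probes that disagreed) did not share a direction. Plxnb3 passed background in knockdown cells but not in control cells (13.7 and 18.9), with a bound of at least 1.38-fold.

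Neuropilins, which hold class 3 semaphorins and vascular growth factors for other receptors, gave contrasting pictures. Nrp1 was higher by 0.82 with 6 probes measured on both arrays, of which 5 lay between 0.67 and 1.39. Its probe in row 137 read 2564 and 4727 (0.88), that in row 132 read 493 and 964 (0.97), and that in row 378 read 157 and 411 (1.39). These 3 are the probes of the curated transcript, and over them alone Nrp1 was past 2-fold, at 1.08. Of them, only the probe in row 378, within the last 64 rows, was itself past 2-fold. Without those rows Nrp1 was at 0.70, and with normexp at 0.58. A probe in row 9 read 100 and 97.2 (-0.04), and a dim one read 18.2 and 16.2. Nrp1 was higher with 5 of its 7 probes, among them each of the curated transcript.

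Nrp2, by contrast, had no direction shared by its 3 probes. The probe of variant 5 read 39622 and 34545 (-0.20), that of variant 6 read 194 and 28.8 (-2.75), and that of variant 1 read 746 and 1493 (1.0). The gene's mean of -0.65 therefore describes none of them, and among brighter probes it turned to 0.40. All 3 lie in the last 64 rows, so Nrp2 has no value outside them, and whether the variants or the place on the array set these differences cannot be told apart here.

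**Figure D3:**
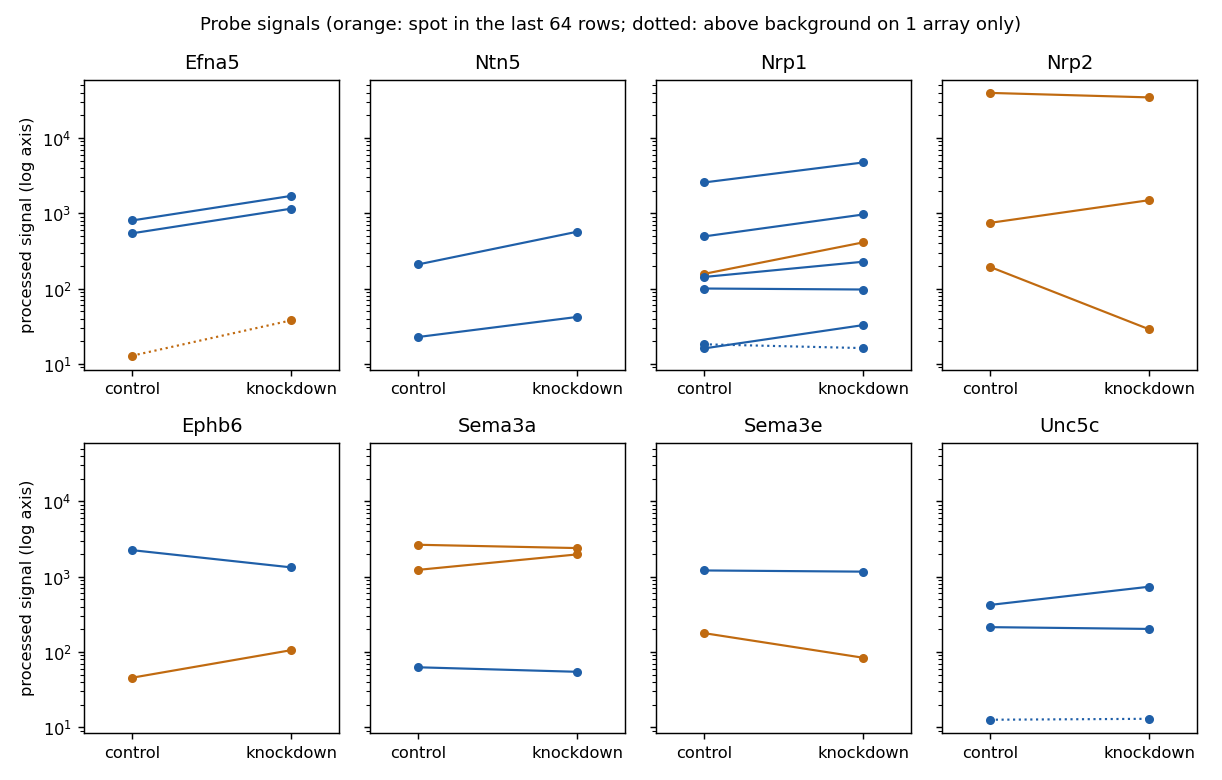
Processed signal (log axis) on the control and knockdown arrays for each probe well above background on at least 1 array, for 8 genes; lines join 1 probe, orange marks spots in the last 64 rows and dotted lines probes above background on 1 array only. The Efna5 and Ntn5 probes slope the same way, while those of Nrp2 and Ephb6 cross in direction.

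Slits and their Robo receptors were mostly at background. Slit1 was the measured Slit (99.0 and 92.8, -0.10), while Slit2 with 7 probes and Slit3 with 1 were not above background. Robo1 was at -0.04 from 3 probes at -0.32, -0.19 and 0.40, and its probe of highest signal read 2148 and 1719. Robo3 and Robo4, the latter known from blood vessels, were at background. Robo2 passed background with 1 of 8 probes, in control cells but not in knockdown cells (62.1 and 3.05), and was lower in the latter by at least 4.78-fold. That spot lies in row 380, within the last 64 rows, and the other 7 Robo2 probes were at background on both arrays.

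Netrins were measured for 3 of 6 genes. Ntn5, a secreted relative of the laminins, was higher by 1.16 ± 0.18, with its probes reading 209 and 569 (1.44), and 22.8 and 42.1 (0.88). Ntn3 was higher by 0.44 with 2 probes at 0.30 and 0.58. Ntn1, the netrin best known as a guidance cue, was lower (269 and 209, -0.37) from 1 probe in row 357, within the last 64 rows. Ntn4 and the membrane-anchored Ntng1 and Ntng2 were at background with every probe. Ntn5 was higher with both probes, and with normexp its mean difference was 0.70, short of 2-fold.

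The 3 measured Unc5 receptors, which turn netrin into a repellent, lay between 0.06 and 0.36. Unc5a read 1798 and 1923 (0.10), and Unc5b was at 0.06 from 2 probes at -0.05 and 0.17. Unc5c was at 0.36 from probes at 0.80 and -0.08, of which the first read 421 and 735 (variant 2) and the second 213 and 202 (variant 1). Among brighter probes Unc5c was at 0.80. Unc5d was at background. Of the letter matches, Unc50 read 4543 and 3859 (-0.24), Unc5cl passed background in knockdown cells but not in control cells (10.4 and 42.6, at least 3.52-fold higher, row 380), and the Slitrk genes and both Plxna4 opposite-strand transcripts were at background.

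Read by role, 30 of 37 ligands were measured and 23 of 33 receptors. Ligands had a median difference of 0.09, with 7 higher (23.3%, background 13.8%) and 5 lower (16.7%, background 11.0%) by 0.5 or more. Receptors had a median of -0.04, with 2 higher (8.70%) and 1 lower (4.35%); the 1 lower was Nrp2, whose probes disagree, and Plxna4, 1 of the 2 higher, is the dim probe described above. The 5 lower ligands were Efna1, Sema3e (-0.05 without the last 64 rows), Sema6b, Sema6c and Sema7a. The 7 higher ligands were Efna5, Efnb1, Ntn5, Sema3c, Sema3f, Sema4g and Sema6d. With normexp, Sema3c (0.46), Sema4g (0.26) and Sema6d (0.46) came under 0.5 in size. So did Efna1 (-0.42), Sema3e (-0.34), Sema6c (-0.42) and Sema7a (-0.495), while Efna5 (1.01), Efnb1 (0.53) and Ntn5 (0.70) did not. Normexp values of Sema3f and Sema6b are not given here.

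Other genes of the guidance pathway were looked up from a list of 102: co-receptors, adhesion partners, kinases, small GTPases and the actin regulators they act on. Of these, 94 were measured, 2 were at least 2-fold higher (background 3.66%), 2 at least 2-fold lower (background 2.41%), and 51 lay above 0 (background 51.1%), with a median of 0.06. Cntn1, a neural adhesion molecule, was higher by 1.62, with 2 probes reading 454 and 1522, and 60.4 and 170. Flrt3, a ligand of Unc5 receptors, read 329 and 694 (1.08), which came under 2-fold with normexp (0.93) and without the filter on dim probes (0.61).

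Nrcam, an adhesion molecule that partners neuropilins, read 6170 and 1959 (-1.66). Its 3 further probes, all dim, passed background in control cells but not in knockdown cells, where each read lower. They read 43.2 and 4.69 in row 212, 21.2 and 2.95 in row 351, and 16.7 and 8.93 in row 378. Rows 351 and 378 are within the last 64 rows. L1cam, of the same family and a partner of Nrp1, read 47.3 and 18.1 (-1.39 ± 0.31), and with normexp its difference was -0.51. Next in order were the small GTPase Rhoa, which read 8472 and 4339 (-0.97), and the kinase Gsk3b, at 0.86 over 4 probes from 0.38 to 1.95. Gsk3b was past 2-fold without the last 64 rows (1.17), which hold its probe of highest signal (4111 and 6332). With that probe alone Gsk3b was at 0.62, and with normexp at 0.66.

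STAT proteins are known to bind DNA at a palindrome whose letters are TTCNNNGAA, the same on both strands. It was searched for in the window from 250 bases before to 50 after each gene's start, from RefSeq (GRCm38.p6), where 68 of the 80 genes had a window. The letters were found in 3 of the 68 genes (4.41%), against 9.55% of all 27025 genes with windows. None of the 3 was past 2-fold. A match describes letters and not a bound site, and no match says nothing about the factor. The stretches are shown for those 3 genes with the motif in capitals, each on its gene's strand.
Efna3, chr3:89323137-89323166, minus strand: ttccaaatccTTCTGTGAActccaagcttg
Epha3, chr16:63864191-63864220, minus strand: ccgagcggggTTCGCAGAAaggcagccaga
Sema3e, chr5:14025307-14025325, plus strand: ctggagacacTTCCTAGAA

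**Figure D4:**
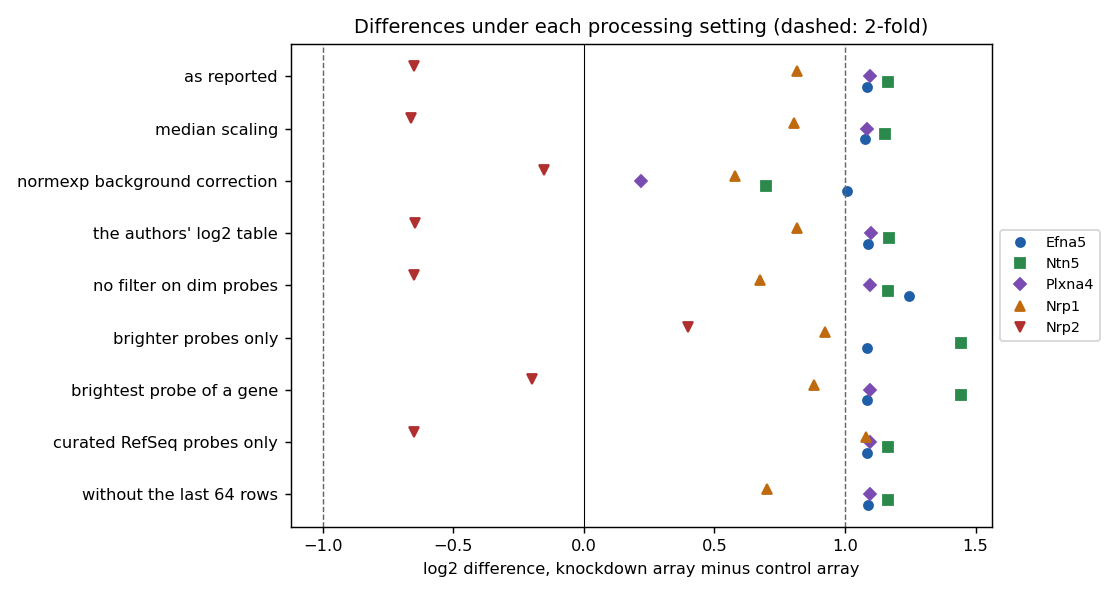
Log2 difference, knockdown minus control, of 5 genes under the reported setting and 8 alternatives, with 2-fold marked by dashed lines; a missing symbol means no probe passed that filter. Efna5 stays between 1.01 and 1.24, while Plxna4 and Ntn5 come under 2-fold with normexp, at 0.22 and 0.70, and Nrp2 ranges from -0.66 to 0.40.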

How the data were processed

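The intensity of each spot, as deposited, came from Agilent Feature Extraction (version 12.1.0.3, protocol GE1_1200_Jun14, 1 colour; per the file headers). That software subtracts background from the processed signal, and scaling between arrays was left to later steps; flag columns (0 or 1) in the deposited files mark spots well above background or outlying. The authors' table holds log2 values, equal to log2 processed signal minus 1 constant per array within 0.001 for 100% of single-spot probes (column medians -3.83 and -3.83).

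Outlier spots (112 and 94 of 59305) were left out; 0 were saturated. Signals were floored at 1, logged and set to each array's 75th percentile (signals 493.3 and 493.7). A gene's value averages those of its probes that were well above background on both arrays; a probe above background on 1 array gives a bound, against the higher of the other array's lowest signal well above background (12.1 control, 13.0 knockdown) and the probe's own signal there. Genes carry the symbols of the authors' table. The accessions of 129 of the 184 probes were found in the RefSeq gene table and all gave the same gene. The number of arrays limits the precision.

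Since each group had 1 array, no test could be made; a difference counts at 2-fold. Named were genes past 2-fold, the highest and lowest of each family, genes with opposed probes or bounds of 2-fold, and the 3 highest and lowest of the pathway list; values of other members complete the account. The members and lists were chosen with earlier results of these data known. Genome build mm9 is named in the file headers; coordinates are given for RefSeq windows alone. The calculation was tested on simulated data. Alternatives used limma 3.58.1 (normexp, offset 50, on the median signal, since the files carry no mean signal), pandas 2.3.3 and Python 3.11.15.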

Additional observations from a re-analysis of the deposited data

How the results depend on the processing

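Under 8 alternatives, 254 values were recomputed for 33 named genes. Of these, 231 moved by less than the SD between probes of a gene (0.31), 23 by more, and no value past 2-fold changed sign, while Nrp2, Ephb6 and Sema5a, under 2-fold, did so among brighter probes (0.40, -0.76 and -0.29), as did the near-0 values of Robo1, Sema5b, Slit1 and Unc5b under other settings. Efna5 was past 2-fold in each of the 8 (1.01 to 1.24). Members at least 2-fold higher numbered 3 of 54, against 3.66% of all genes. With normexp they were 1 of 54 (all genes 1.17%), and among brighter probes 2 of 38 (all genes 2.04%). Without the filter on dim probes they were 4 of 80 (all genes 4.76%), and with curated RefSeq probes 4 of 51 (all genes 3.69%). Members at least 2-fold lower were 0 of 54 (all genes 2.41%), and 1 of 80 without the filter on dim probes (all genes 3.7%). The members' median of 0.01 became 0.10 without that filter, where the median of all genes was also 0.10, -0.10 with the brightest probe of each gene, and, without the last 64 rows of the array, -0.050. It was 0.06 without the 10 letter matches, an alternative chosen after seeing the data. In the pathway list, 2 of 94 genes were at least 2-fold higher, 1 of 94 with normexp and 4 of 94 with curated RefSeq probes. At least 2-fold lower were 2 of 94, 1 of 94 with normexp and 1 of 74 among brighter probes. Over all genes, the counts of 599 higher and 394 lower (of 16354) became 191 and 168 (of 16354) with normexp. They were 1279 and 999 (of 26891) without the filter, and 211 and 230 (of 10366) among brighter probes. With curated RefSeq probes they were 514 and 375 (of 13939). No paired analysis was possible because each group held 1 array. Signals close to background limit the values of Plxna4, Plxnb3 and Sema4g, among others. L1cam (47.3 and 18.1) and the dimmer Ntn5 probe (22.8 and 42.1) are limited in the same way.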
